A study of Mus musculus with 12 samples.

Results

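The mitochondrial ribosomal proteins described here are the 78 of 53796 listed genes whose symbol is Mrpl or Mrps followed by a number and at most 1 letter. There were 49 Mrpl genes, named for the large subunit, and 29 Mrps genes, named for the small subunit. The 12 RNA-seq libraries come from mouse livers, with 3 libraries for each of 4 groups, and levels are given in FPKM (fragments scaled to transcript length and to mapped fragments, as estimated by the authors). All 78 members passed the filter of at least 1 FPKM in at least 3 libraries that left 11718 genes for testing, and no member was listed at 0 in any library. The lowest member value was 2.65 FPKM and the highest was 296.3 FPKM.

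Mitochondria keep their own ribosome, which translates the few proteins encoded by mitochondrial DNA, all of them membrane subunits of the respiratory chain and ATP synthase. Its ribosomal RNAs come from mitochondrial DNA, but its proteins are encoded in the nucleus, translated in the cytosol and imported. Some have a counterpart in the bacterial ribosome and others are found only in mitochondrial ribosomes. The large subunit joins amino acids and holds the exit tunnel at the inner membrane, and the small subunit binds and decodes the messenger RNA. Hepatocytes are rich in mitochondria and depend on oxidative phosphorylation.

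The RIPK1_D138N group carries the genotype label RIPK1 D138N, a change in the kinase RIPK1 known to remove its kinase activity. TNFR12_KO carries the label TNFR1/2 KO, for loss of both receptors of tumour necrosis factor. WT and Sham are both wild type, and Sham is the only group labelled sham. The title of the series names mice with and without ischemia, and RIPK1_D138N, TNFR12_KO and WT were taken as its ischemia arm. The labels state neither the kind and length of ischemia nor the time to collection, age or sex. Mutant livers with a sham label were not analysed here, so baseline differences cannot be told apart from differing responses to ischemia. Nothing in the labels says that the libraries of a group come from separate animals, so p-values reflect the spread among libraries, which may be technical. The RIPK1_D138N and TNFR12_KO libraries carry replicate numbers, while the WT and Sham libraries could be matched only to their group and are lettered a to c.

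Some features of the libraries touch every result. RIPK1_D138N replicates 2 and 3 held 20.1 and 23.4 FPKM of Xist, the RNA of the inactive X chromosome, while the other 10 libraries held at most 0.0824 FPKM. Those 2 libraries had at most 0.0176 FPKM of the Y-linked Ddx3y, which reached at least 11.97 FPKM in the others. Counts or medians of members and of gene lists in RIPK1_D138N against WT are therefore also given without them. Transcripts of both receptors remained listed in TNFR12_KO, with 15.3 to 21.9 FPKM of Tnfrsf1a, against 32.3 to 38.1 FPKM in WT. Tnfrsf1b held 3.96 to 9.31 FPKM in TNFR12_KO, against 8.13 to 10.2 FPKM in WT. These values do not show the deletion, and TNFR12_KO below means the libraries so labelled. Total FPKM came to 489300 to 518600 in RIPK1_D138N, 441300 to 512900 in TNFR12_KO, 288900 to 303500 in WT and 649400 to 750500 in Sham. FPKM gives no counts, but the steps between low values put the fragments behind 1 FPKM between 0.328 times (2 Sham libraries) and 1.78 times (1 WT library) those of WT library a.

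Promoter sequences are shown for 6 members, to let the regulatory letters be read beside the values below. The windows run from 250 bases before to 50 bases after the start of the gene, from RefSeq on GRCm38.p6. Mrps21 held the highest mean level of all members (chr3:95871465-95871764 on the minus strand). Mrpl12 is the stalk protein that also binds the mitochondrial RNA polymerase (chr11:120484387-120484686 on the plus strand). Mrpl46 (chr7:78783040-78783339 on the minus strand) and Mrps11 (chr7:78782881-78783180 on the plus strand) are a large-subunit and a small-subunit gene that start head to head, and their windows share 141 bases. Mrps18b (chr17:35916391-35916690 on the minus strand) and Mrpl45 (chr11:97315466-97315765 on the plus strand) are shown because their levels departed from those of most members. Capitals mark matches on either strand to NRF1 (GCGCA, any 1 base, then GCGC), ETS (CCGGAAG, bound by GABPA among others) or YY1 (AAGATGGCG) motifs.
Mrps21: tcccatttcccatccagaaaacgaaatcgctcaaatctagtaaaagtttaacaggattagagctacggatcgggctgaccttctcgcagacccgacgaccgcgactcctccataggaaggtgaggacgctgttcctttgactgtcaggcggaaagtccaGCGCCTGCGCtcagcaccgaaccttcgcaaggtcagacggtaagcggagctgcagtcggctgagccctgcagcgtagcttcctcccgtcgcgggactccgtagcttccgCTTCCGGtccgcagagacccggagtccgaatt
Mrpl12: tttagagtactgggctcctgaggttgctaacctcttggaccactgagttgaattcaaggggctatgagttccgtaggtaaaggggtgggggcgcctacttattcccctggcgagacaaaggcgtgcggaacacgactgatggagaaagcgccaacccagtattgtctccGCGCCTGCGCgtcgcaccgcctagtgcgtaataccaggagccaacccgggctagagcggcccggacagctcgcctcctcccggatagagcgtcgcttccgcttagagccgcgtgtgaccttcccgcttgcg
Mrpl46: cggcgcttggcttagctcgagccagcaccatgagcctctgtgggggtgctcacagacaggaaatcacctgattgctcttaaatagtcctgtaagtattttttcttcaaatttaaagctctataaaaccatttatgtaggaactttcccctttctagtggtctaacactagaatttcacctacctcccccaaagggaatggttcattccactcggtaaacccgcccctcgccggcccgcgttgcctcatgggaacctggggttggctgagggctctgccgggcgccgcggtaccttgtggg
Mrps11: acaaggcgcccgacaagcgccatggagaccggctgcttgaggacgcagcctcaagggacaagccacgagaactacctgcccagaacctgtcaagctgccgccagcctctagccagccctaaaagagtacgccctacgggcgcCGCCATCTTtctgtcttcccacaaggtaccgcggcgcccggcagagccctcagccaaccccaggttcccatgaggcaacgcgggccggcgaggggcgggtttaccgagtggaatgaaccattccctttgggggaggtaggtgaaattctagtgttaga
Mrps18b: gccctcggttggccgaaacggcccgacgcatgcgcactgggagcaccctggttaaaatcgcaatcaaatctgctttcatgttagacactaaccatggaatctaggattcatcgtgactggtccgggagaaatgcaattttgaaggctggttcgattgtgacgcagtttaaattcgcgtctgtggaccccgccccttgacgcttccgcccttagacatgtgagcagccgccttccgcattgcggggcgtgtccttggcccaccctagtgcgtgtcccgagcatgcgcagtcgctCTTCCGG
Mrpl45: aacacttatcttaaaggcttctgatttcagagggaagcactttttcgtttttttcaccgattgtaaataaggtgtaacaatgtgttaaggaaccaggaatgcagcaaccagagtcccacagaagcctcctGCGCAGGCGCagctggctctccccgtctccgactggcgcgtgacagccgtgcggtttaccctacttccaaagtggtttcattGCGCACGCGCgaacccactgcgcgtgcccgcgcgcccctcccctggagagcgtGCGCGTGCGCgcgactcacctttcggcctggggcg

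A promoter was found for 69 members. At least 1 of the NRF1, ETS and YY1 motifs was matched in 41 of these (59.4%), against 32.9% of the promoters of 8259 tested genes and 15.1% of all 27025 promoters in the table. The NRF1 letters were in 13 member promoters (18.8%, against 12.1% of tested genes), the ETS letters in 26 (37.7%, against 21.2%) and the YY1 letters in 8 (11.6%, against 3.87%). An E-box (CACGTG, a motif bound by MYC and others) was in 5 (7.25%, against 12.2%). The Mrps21 window held an NRF1 match starting 91 bases before the start and an ETS match at base 19 after it. In the Mrpl45 window there were 3 NRF1 matches, and in that of Mrpl46 there was no match to the 3 motifs. These are matches of letters and were not tested as binding sites.

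The first comparison asks how WT livers of the ischemia arm differed from Sham livers. Of the 78 members, 72 (92.3%) fell in WT and none rose, by limma with Benjamini-Hochberg adjustment at 0.05. Over all tested genes 41.9% fell and 16.4% rose. The median log2 fold change of the members was -1.19, against -0.36 for all tested genes, and 74 of the 78 lay below that median of all genes. In summed FPKM the members reached 1307, 1419 and 1342 in WT, against 4144, 2894 and 3355 in Sham. All WT sums lay below all Sham sums, and Sham library a was the highest. For 73 members the 3 WT libraries were all below the 3 Sham libraries. The share of all tested genes that separated in this way is not given here, so this count is not read as a trait of the members. Since liver tissue was sequenced in bulk, fewer cells of a type and less RNA per cell cannot be told apart. The markers of hepatocytes moved with the members: 6 of 6 fell in WT, and their summed level was 5175 to 8106 FPKM in WT and 27820 to 33550 FPKM in Sham, with none of the 6 at 0. Their part in the result was not tested.

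The size of this fall depends on how the libraries are scaled. With the libraries scaled by the median of ratios, 60 members fell and none rose, while 27.2% of all tested genes fell and 27.0% rose. Quantile normalization left 47 members that fell and 2 that rose, beside 27.0% and 25.1% of all tested genes. When each library was rescaled to 1000000 FPKM, 11 members fell and 9 rose, while 10.1% of all tested genes fell and 53.1% rose. That rescaling moved the median of all genes to 0.67 and the median of the members to -0.03. Relative to the median of all genes the members stood at -0.83 on the deposited values, and at -0.74, -0.52 and -0.71 under the median of ratios, quantile normalization and rescaling. Between 64 and 74 of the 78 members were below the median of all genes under each of these scalings. Fold changes below are on the deposited scale.

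**Figure D1:**
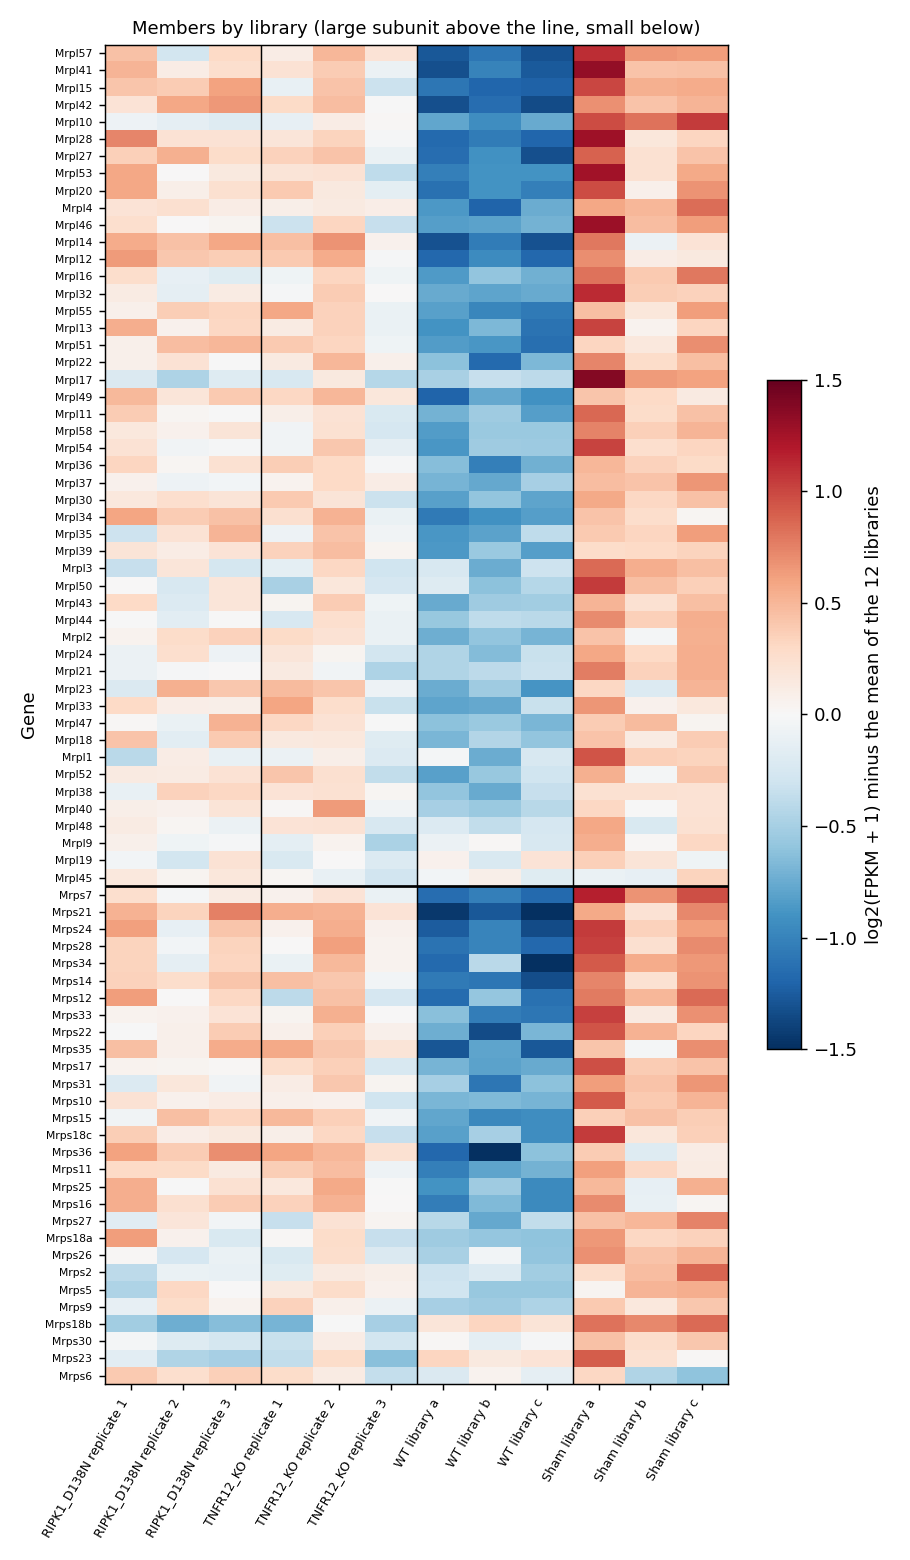
Level of each of the 78 members in each of the 12 libraries, as log2(FPKM + 1) minus the gene's mean over the libraries (red above, blue below). Columns are libraries by group, and rows are genes, ordered within each subunit by the difference between Sham and WT; nearly all rows are blue in the 3 WT libraries, and Mrps18b near the bottom is lowest in the RIPK1_D138N and TNFR12_KO columns.

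Mrps7 (ENSMUSG00000046756, chr11:115603925-115608036, plus strand), a small-subunit protein with a bacterial counterpart, had the largest fall. It had 12.6, 13.9 and 12.4 FPKM in WT, against 66.8, 47.1 and 57.97 FPKM in Sham. The WT libraries were all below the Sham libraries, and the log2 fold change was -2.05 ± 0.16 (SE; adjusted p = 7.05e-07). Exons of Mrps7 overlap 2 genes on the opposite strand, Gga3 and Mif4gd, and the labels do not state whether strand was used in the counting.

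Mrpl57 (ENSMUSG00000021967, chr14:57826234-57829296, plus strand), a large-subunit protein with no bacterial counterpart, had 18.7, 21.3 and 18.1 FPKM in WT, against 101, 73.3 and 71.8 FPKM in Sham. Its log2 fold change was -2.01 ± 0.21 (SE; adjusted p = 5.61e-06). Mrps21 (ENSMUSG00000054312, chr3:95862634-95871519, minus strand), which has a bacterial counterpart in S21, had 41.6, 46.99 and 35.8 FPKM in WT, against 171, 134 and 189.5 FPKM in Sham. The groups were far apart, with a log2 fold change of -1.96 ± 0.19 (SE; adjusted p = 3.02e-06). For Mrpl41 (ENSMUSG00000036850, chr2:24974117-24975098, minus strand), a large-subunit protein, the values were 11.7, 14.7 and 12.1 FPKM in WT, against 77.9, 41.4 and 41.9 FPKM in Sham. Sham library a was well above the other Sham libraries, which were themselves above all WT libraries. The log2 fold change was -1.93 ± 0.24 (SE; adjusted p = 2.01e-05). Mrps24 (ENSMUSG00000020477, chr11:5703983-5715680, minus strand), the counterpart of bacterial S3 at the entry of the messenger RNA, had 20.6, 24.9 and 19.3 FPKM in WT, against 105, 64.02 and 77.7 FPKM in Sham. Mrpl15 (ENSMUSG00000033845, chr1:4773206-4785739, minus strand), the counterpart of bacterial L15, had 18.6, 17.2 and 16.9 FPKM in WT, against 82.5, 59.2 and 60.3 FPKM in Sham. Neither gene overlapped between groups, and the log2 fold changes were -1.86 and -1.86. Among the 72 members that fell, log2 fold changes ran from -2.05 to -0.42.

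Of the 78 members, 6 did not pass the test between WT and Sham. Mrpl48 (-0.47) and Mrpl9 (-0.40) had adjusted p of 0.062 and 0.0725. The log2 fold change was -0.16 for Mrps23, -0.15 for Mrpl19, -0.08 for Mrpl45 and 0.15 for Mrps6, with adjusted p of at least 0.517. Mrpl45 (ENSMUSG00000018882, chr11:97315716-97329920, plus strand), which holds the ribosome to the inner membrane, had 9.45, 10.4 and 8.48 FPKM in WT, against 9.03, 8.86 and 12.6 FPKM in Sham. Its groups overlapped, and its fold change turned positive under each of the other scalings. After rescaling to 1000000 FPKM it passed as higher in WT (1.116, adjusted p = 4.78e-05). Mrps6 (ENSMUSG00000039680, chr16:92058270-92112227, plus strand), a small-subunit protein with a bacterial counterpart, had 11.99, 14.7 and 12.8 FPKM in WT, against 17.7, 10.1 and 8.95 FPKM in Sham. The values overlapped, and its exons overlap Slc5a3 and Gm49711, so fragments can be shared. Mrps6 passed as higher in WT after rescaling to 1000000 FPKM (1.37, adjusted p = 0.000164) and under quantile normalization (0.726, 0.0187). It also passed with the length trend removed (0.916, 0.00158).

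The next comparison sets RIPK1_D138N livers against WT livers. Of the 78 members, 61 (78.2%) rose in RIPK1_D138N and 1 fell, while 29.8% of all tested genes rose and 21.9% fell. The median log2 fold change was 0.85 for the members, against 0.11 for all tested genes. The members summed to 2882, 2577 and 2818 FPKM in RIPK1_D138N, against 1307, 1419 and 1342 FPKM in WT. The lowest RIPK1_D138N sum was well above the highest WT sum. For 65 members all RIPK1_D138N libraries were above all WT libraries, a count with no share of all tested genes beside it. Without replicates 2 and 3, which hold Xist RNA, 47 members rose and 1 fell, while 21.7% of all tested genes rose and 15.3% fell. The median of the members was then 0.91, and the 1 library left is assumed to vary like those of the other groups. Hepatocyte markers rose as well, 6 of 6, to a summed 17640 to 18550 FPKM in RIPK1_D138N, against 5175 to 8106 FPKM in WT, and their part was not tested.

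TNFR12_KO livers gave counts of the same size against the same WT libraries. Here too 61 members rose and 1 fell, while 29.6% of all tested genes rose and 17.5% fell. The median log2 fold change was 0.82, against 0.14 for all tested genes. The members summed to 2700, 3018 and 2177 FPKM in TNFR12_KO, against 1307, 1419 and 1342 FPKM in WT. TNFR12_KO replicate 3 was the lowest of its group and still above every WT library. For 62 members all TNFR12_KO libraries were above all WT libraries, again with no share of all tested genes beside it. Hepatocyte markers, 6 of 6, rose to a summed 17270 to 20930 FPKM in TNFR12_KO, against 5175 to 8106 FPKM in WT, and their part was not tested. Both comparisons share the WT libraries, so a high or low WT library moves both.

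Scaling also sets these counts. Rescaled to 1000000 FPKM, 22 members rose and 10 fell in RIPK1_D138N, and 24 rose and 8 fell in TNFR12_KO. Of all tested genes 14.3% then rose and 48.1% fell in RIPK1_D138N, and 14.6% rose and 43.8% fell in TNFR12_KO. Relative to the median of all genes, the members stood at 0.74 in RIPK1_D138N and 0.68 in TNFR12_KO as deposited, and at 0.73 and 0.66 after that rescaling.

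**Figure D2:**
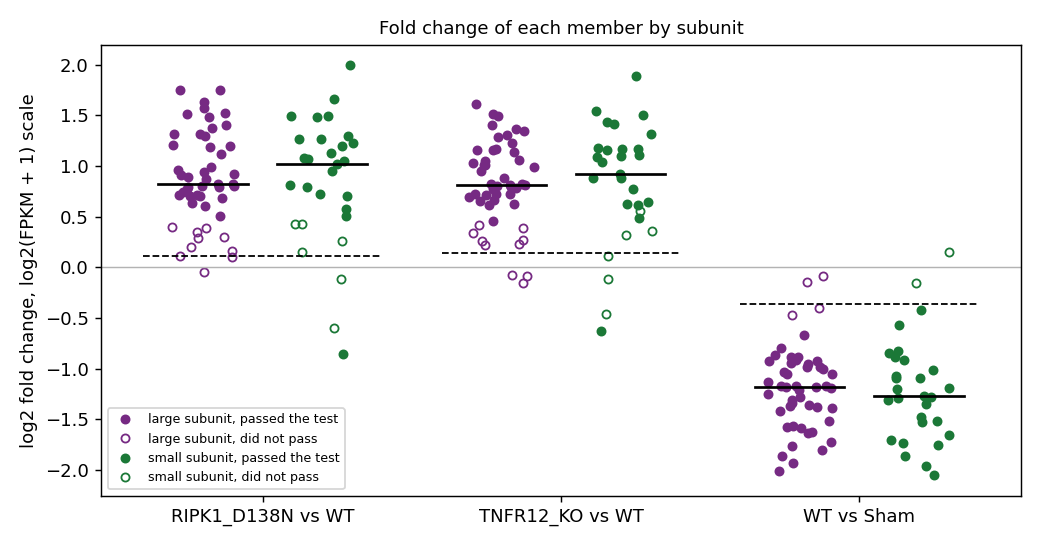
Log2 fold change of each member (1 point a gene, on the log2(FPKM + 1) scale) in 3 comparisons, by subunit, with filled points for genes that passed the test. Short lines are the medians of each subunit and dashed lines the medians of all tested genes; members lie mostly above the dashed line in RIPK1_D138N and TNFR12_KO against WT (member medians 0.85 and 0.82) and below it in WT against Sham (-1.19).

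Mrps21 had the largest rise in both mutants. It had 165, 146 and 195 FPKM in RIPK1_D138N and 168, 165 and 133 FPKM in TNFR12_KO, against 41.6, 46.99 and 35.8 FPKM in WT. Every mutant library was above every WT library, and the mutant values overlapped those of Sham given above. The log2 fold change was 1.99 ± 0.19 (SE; adjusted p = 3.85e-06) in RIPK1_D138N and 1.88 ± 0.19 (SE; adjusted p = 6.73e-06) in TNFR12_KO. Mrpl14 (ENSMUSG00000023939, chr17:45686322-45698495, plus strand), the counterpart of bacterial L14 at the face between the subunits, had 111, 102 and 113 FPKM in RIPK1_D138N. It had 103, 120.0 and 78.2 FPKM in TNFR12_KO, against 29.7, 35.8 and 29.7 FPKM in WT. These groups did not overlap, with a log2 fold change of 1.75 in RIPK1_D138N and 1.62 in TNFR12_KO. Mrpl42 (ENSMUSG00000062981, chr10:95480805-95501940, minus strand), which has no bacterial counterpart, had 51.3, 66.6 and 70.3 FPKM in RIPK1_D138N. It had 54.5, 61.5 and 43.99 FPKM in TNFR12_KO, against 17.2, 19.6 and 16.9 FPKM in WT. Its log2 fold changes were 1.75 in RIPK1_D138N and 1.51 in TNFR12_KO.

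Mrpl12 (ENSMUSG00000039640, chr11:120484613-120489065, plus strand) had 100.1, 85.4 and 83.04 FPKM in RIPK1_D138N and 84.5, 94.9 and 63.1 FPKM in TNFR12_KO. It had 27.9, 32.8 and 27.8 FPKM in WT, against 105, 69.6 and 71.03 FPKM in Sham. WT was the only low group, and the log2 fold changes were 1.57 ± 0.20 (SE; adjusted p = 3.84e-05) in RIPK1_D138N and 1.41 ± 0.20 (SE; adjusted p = 0.000102) in TNFR12_KO against WT. Its exons overlap Gm16755 on the opposite strand. Mrpl15 had 54.4, 53.1 and 62.4 FPKM in RIPK1_D138N and 37.5, 55.1 and 32.2 FPKM in TNFR12_KO, with log2 fold changes of 1.63 and 1.16 against the WT values above. Mrps35 (ENSMUSG00000040112, chr6:147042764-147073991, plus strand), a small-subunit protein with no bacterial counterpart, had 46.4, 35.6 and 49.9 FPKM in RIPK1_D138N. It had 50.3, 44.9 and 38.7 FPKM in TNFR12_KO, against 13.2, 19.1 and 13.3 FPKM in WT. No library of either mutant was as low as WT, and the log2 fold changes were 1.48 and 1.51. Mrpl57 had 50.1, 66.01 and 53.3 FPKM in TNFR12_KO, against 18.7, 21.3 and 18.1 FPKM in WT, a log2 fold change of 1.49. Among members that rose, log2 fold changes ran from 0.50 to 1.99 in RIPK1_D138N and from 0.46 to 1.88 in TNFR12_KO.

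Mrps18b (ENSMUSG00000024436, chr17:35910379-35916389, minus strand), a small-subunit paralog of bacterial S18, was the exception. It had 16.7, 14.2 and 15.3 FPKM in RIPK1_D138N and 14.6, 24.1 and 16.9 FPKM in TNFR12_KO. It had 27.5, 30.6 and 27.8 FPKM in WT, against 43.5, 40.7 and 44.4 FPKM in Sham. Sham was highest, WT next and the mutants lowest, with no overlap between WT and Sham or between either mutant and WT, while the mutants overlapped each other. It fell in both mutants against WT, with log2 fold changes of -0.86 in RIPK1_D138N (adjusted p = 0.00125) and -0.63 in TNFR12_KO (adjusted p = 0.00962). Against Sham its log2 fold change was -1.42 in RIPK1_D138N, -1.20 in TNFR12_KO and -0.57 in WT, but in WT the sign turned under 3 of the other scalings. An unnamed gene model on the opposite strand, Gm16279, overlaps its exons.

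The S18 paralogs show how far members of 1 family differed. Mrps18c (ENSMUSG00000016833, chr5:100798627-100804471, plus strand), which takes the place of bacterial S18, had 45.3, 37.2 and 38.6 FPKM in RIPK1_D138N and 37.2, 43.4 and 27.2 FPKM in TNFR12_KO. It had 19.4, 24.3 and 17.7 FPKM in WT, against 73.01, 39.2 and 44.8 FPKM in Sham. It rose in both mutants, with log2 fold changes of 0.95 and 0.77, and its exons overlap Gm43511. The call in TNFR12_KO was lost without WT library a or c or without TNFR12_KO replicate 1 or 2 (adjusted p = 0.0521 to 0.0785), and under each of the other scalings (0.0821 to 0.786). That in RIPK1_D138N was lost under 3 of the other scalings (0.0723 to 0.404). Mrps18a (ENSMUSG00000023967, chr17:46110986-46128910, plus strand), placed in the large subunit by the structure of the ribosome, had 41.5, 27.7 and 22.5 FPKM in RIPK1_D138N and 26.9, 32.3 and 20.6 FPKM in TNFR12_KO. It had 18.01, 17.4 and 17.2 FPKM in WT, against 42.4, 33.1 and 34.1 FPKM in Sham. Every mutant library was above WT, and the test was passed in RIPK1_D138N and missed in TNFR12_KO, with log2 fold changes of 0.72 ± 0.22 (SE; adjusted p = 0.0155) in RIPK1_D138N and 0.55 ± 0.22 (SE; adjusted p = 0.0566) in TNFR12_KO. Both calls depended on the setting. That in RIPK1_D138N was lost after rescaling to 1000000 FPKM (-0.019, adjusted p = 0.945) and under quantile normalization (0.275, 0.24). It was also lost with the length trend removed (0.184, 0.424). The call in RIPK1_D138N was lost without its replicate 1 (adjusted p = 0.0684), while TNFR12_KO passed when fitted with WT alone (0.0344), with a filter of 5 FPKM (0.0484), without both Xist-positive libraries (0.0328), and without RIPK1_D138N replicate 1 or 3 or TNFR12_KO replicate 3 (0.0249 to 0.046). The difference between the mutants did not pass the test. On the deposited values Mrps18a fell in WT against Sham, and that call was lost under each of the other scalings (adjusted p = 0.0508 to 0.395).

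The members that did not pass the test against WT numbered 16 in each mutant. Mrpl17 (ENSMUSG00000030879, chr7:105803206-105811099, minus strand), the counterpart of bacterial L17 at the exit of the tunnel, was the most abundant of them. It had 97.3, 82.03 and 98.8 FPKM in RIPK1_D138N and 95.6, 125 and 84.3 FPKM in TNFR12_KO. It had 80.8, 89.2 and 86.4 FPKM in WT, against 296, 177 and 173 FPKM in Sham. Mutant and WT libraries overlapped and all lay below Sham, with log2 fold changes against WT of 0.11 in RIPK1_D138N and 0.23 in TNFR12_KO. Under quantile normalization Mrpl17 was lower than WT at -0.85 in RIPK1_D138N (adjusted p = 0.00289) and -0.70 in TNFR12_KO (0.0098). Rescaling to 1000000 FPKM gave -0.66 in RIPK1_D138N (0.0121) and -0.49 in TNFR12_KO (0.0516). Its log2 fold change in WT against Sham was then -0.026 under quantile normalization (0.921) and -0.027 after rescaling (0.916). Mrpl44 (ENSMUSG00000026248, chr1:79776018-79781445, plus strand), a protein related to RNase III, had 14.1, 12.6 and 14.03 FPKM in RIPK1_D138N and 11.8, 16.95 and 13.1 FPKM in TNFR12_KO. It had 9.21, 10.7 and 10.4 FPKM in WT, against 23.8, 18.3 and 21.1 FPKM in Sham. All mutant libraries lay above WT, but the test missed the threshold with 0.39 ± 0.16 (SE; adjusted p = 0.0606) in RIPK1_D138N and 0.42 ± 0.16 (SE; adjusted p = 0.0506) in TNFR12_KO. It was passed without TNFR12_KO replicate 2 in RIPK1_D138N (0.0461), and without TNFR12_KO replicate 1 (0.0334) or Sham library a (0.042) in TNFR12_KO. Mrps30 (ENSMUSG00000021731, chr13:118378381-118387252, minus strand), named for the small subunit but placed in the large one, had 6.03, 5.25 and 4.98 FPKM in RIPK1_D138N and 4.69, 6.76 and 4.92 FPKM in TNFR12_KO. It had 6.27, 5.45 and 6.10 FPKM in WT, against 8.73, 7.62 and 8.44 FPKM in Sham. Mutants and WT overlapped, and the log2 fold changes against WT were -0.11 and -0.12. Its fall in WT against Sham was lost when any 1 WT library or Sham library a or c was left out (adjusted p = 0.0621 to 0.0885). It was also lost under the median of ratios (-0.023, 0.902), quantile normalization (-0.084, 0.637) and with the length trend removed (-0.203, 0.271). After rescaling to 1000000 FPKM Mrps30 was higher in WT than in Sham (0.736, 0.0021). Mrpl45 had 10.95, 10.1 and 11.1 FPKM in RIPK1_D138N and 9.97, 8.93 and 7.82 FPKM in TNFR12_KO, close to its WT and Sham values. In RIPK1_D138N the others were Mrps23, Mrpl19, Mrpl9, Mrps2, Mrpl1, Mrps26, Mrpl3, Mrpl48, Mrpl21, Mrpl50, Mrps6 and Mrps5, with log2 fold changes from -0.59 (Mrps23) to 0.43 (Mrps5). In TNFR12_KO the others were Mrps23, Mrpl19, Mrpl9, Mrps2, Mrpl1, Mrps26, Mrpl3, Mrpl48, Mrpl21, Mrpl50, Mrps6 and Mrps18a.

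**Figure D3:**
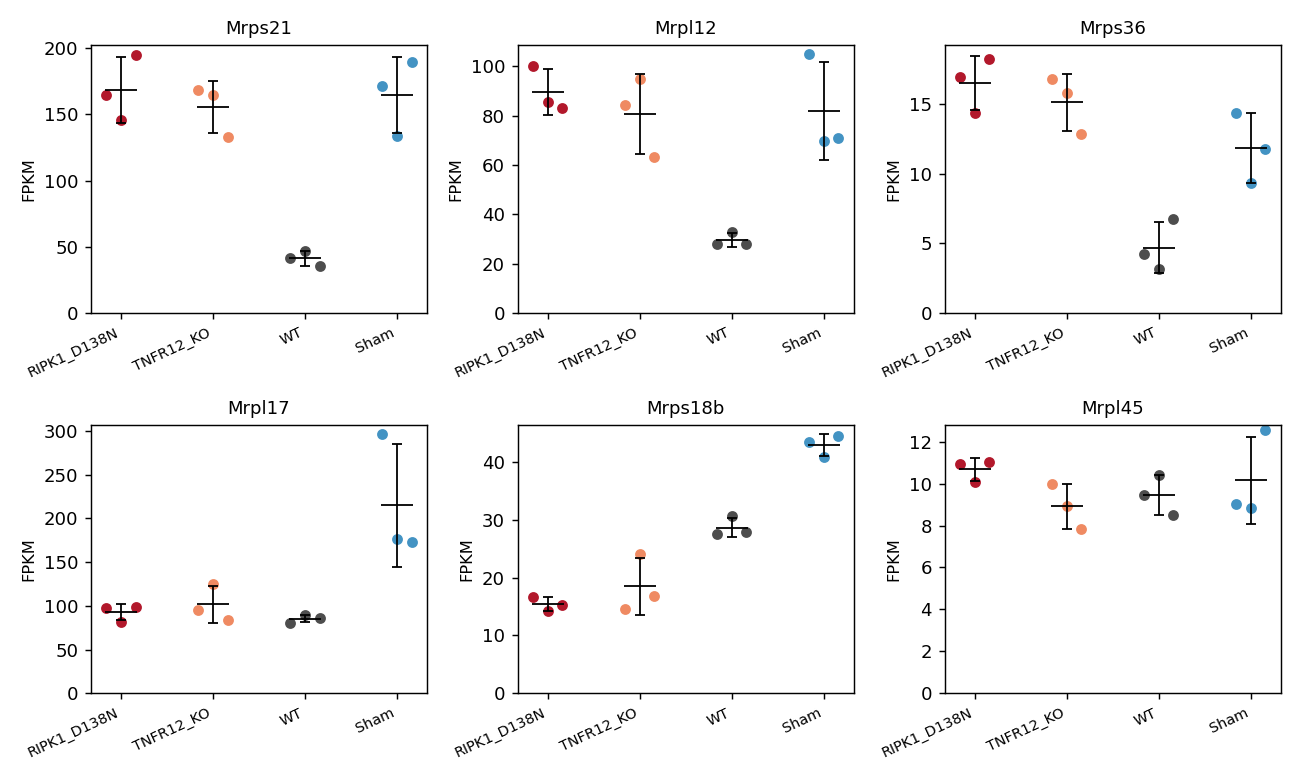
FPKM of 6 members in each library (points), with the mean and SD of each group of 3 (bars), on axes that start at 0. Mrps21, Mrpl12 and Mrps36 are low in WT only, Mrpl17 is high in Sham only, Mrps18b is lower in the RIPK1_D138N and TNFR12_KO libraries than in WT and Sham, and Mrpl45 lies between 7.82 and 12.6 FPKM in every group.

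Between the mutants, none of the 78 members passed the test in either direction by limma, and 1 had an unadjusted p under 0.05. Over all tested genes 0.35% were higher and 0.58% lower in RIPK1_D138N. The median log2 fold change of the members was 0.03, against -0.05 for all tested genes. Mrpl15 had the lowest p, with 54.4, 53.1 and 62.4 FPKM in RIPK1_D138N, against 37.5, 55.1 and 32.2 FPKM in TNFR12_KO. The libraries overlapped, with a log2 fold change of 0.47 ± 0.20 (SE; adjusted p = 0.359). Mrps12 (ENSMUSG00000045948, chr7:28739641-28741820, minus strand), at the decoding centre, had 72.3, 46.5 and 57.8 FPKM in RIPK1_D138N, against 34.99, 63.1 and 38.8 FPKM in TNFR12_KO, a log2 fold change of 0.39 ± 0.25 (SE; adjusted p = 0.6). For Mrpl45, the only member with all RIPK1_D138N libraries above all TNFR12_KO libraries, the log2 fold change was 0.24 ± 0.16 (SE; adjusted p = 0.631), and for Mrpl34 (ENSMUSG00000034880, chr8:71464959-71465747, plus strand), the counterpart of bacterial L34, it was 0.25 ± 0.18 (SE; adjusted p = 0.663). Without both Xist-positive libraries no member passed either. Missing the threshold does not show that the mutants were alike.

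Against Sham, 22 members (28.2%) fell in RIPK1_D138N and none rose, while 22.7% of all tested genes fell and 7.51% rose. In TNFR12_KO 18 (23.1%) fell and none rose, while 18.2% of all tested genes fell and 7.47% rose. These shares are close to those of all genes. The median log2 fold changes were -0.31 in RIPK1_D138N and -0.40 in TNFR12_KO, against -0.22 and -0.18 for all tested genes. Single libraries also moved the counts on the deposited values. The shares of all tested genes in fits without 1 library are not given here, so the counts below are not read as a trait of the members. Without Sham library a 9 members fell in RIPK1_D138N and 10 in TNFR12_KO, and without Sham library c 13 and 9 fell. The count for RIPK1_D138N was 13, 9 and 6 without its replicates 1, 2 and 3 in turn. It was 2 without both Xist-positive libraries, where the share of all tested genes that fell was 6.33%. That for TNFR12_KO was 6 without its replicate 1 and 4 without its replicate 3. By size, Mrps18b, Mrpl17, Mrpl10 and Mrps7 led in RIPK1_D138N, and Mrps18b, Mrpl17, Mrpl10 and Mrpl46 in TNFR12_KO. Mrpl10 (ENSMUSG00000001445, chr11:97041560-97049213, plus strand), the base of the stalk that holds Mrpl12, had 18.9, 18.1 and 17.3 FPKM in RIPK1_D138N and 18.2, 21.6 and 20.2 FPKM in TNFR12_KO. It had 11.2, 9.995 and 11.4 FPKM in WT, against 40.4, 35.8 and 42.1 FPKM in Sham. Both mutants lay between WT and Sham with no overlap, and against WT it rose by 0.69 and 0.82 on the log2 scale. After rescaling to 1000000 FPKM these rises were lost, at -0.035 in RIPK1_D138N (adjusted p = 0.852) and 0.149 in TNFR12_KO (0.402). Exons of Mrpl10 overlap Gm11574 on the opposite strand.

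The subunits moved together. Beside the counts below, 41.9% of all tested genes fell in WT against Sham, and 29.8% rose in RIPK1_D138N and 29.6% in TNFR12_KO against WT. In WT against Sham 45 of 49 large-subunit and 27 of 29 small-subunit genes fell, with medians of -1.18 and -1.27. In RIPK1_D138N against WT 39 large-subunit genes rose and none fell, and 22 small-subunit genes rose and 1 fell, with medians of 0.82 and 1.02. The counts were the same in TNFR12_KO, with medians of 0.81 and 0.92. Without both Xist-positive libraries 29 large-subunit genes rose in RIPK1_D138N, and 18 small-subunit genes rose and 1 fell, with medians of 0.89 and 0.96. Summed over genes, the large subunit reached 1841 ± 79.5 FPKM in RIPK1_D138N, 1746 ± 291 in TNFR12_KO, 925 ± 35.1 in WT and 2301 ± 459 in Sham (SD, n = 3 each). The small subunit reached 919 ± 82.4 FPKM in RIPK1_D138N, 885 ± 138.1 in TNFR12_KO, 431 ± 38.0 in WT and 1163 ± 179 in Sham (SD, n = 3 each).

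The ratio of these sums overlapped between all groups. The large subunit held 1.96, 2.13 and 1.94 times the FPKM of the small one in RIPK1_D138N, and 2.09, 1.94 and 1.89 times in TNFR12_KO. It held 2.09, 2.00 and 2.37 times in WT, against 1.85, 1.96 and 2.11 times in Sham. WT library c had the highest ratio and 1 Sham library, c, the lowest. With the median gene of each subunit in place of the sum, the ratio averaged 1.47 in RIPK1_D138N, 1.48 in TNFR12_KO, 1.17 in WT and 1.45 in Sham. WT was the highest group by sums and the lowest by medians, and no order of the groups is drawn from it. Of total FPKM the members took 0.548 ± 0.0183% in RIPK1_D138N, 0.537 ± 0.048% in TNFR12_KO, 0.460 ± 0.0103% in WT and 0.489 ± 0.074% in Sham (SD, n = 3 each), and Sham overlapped every other group.

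**Figure D4:**
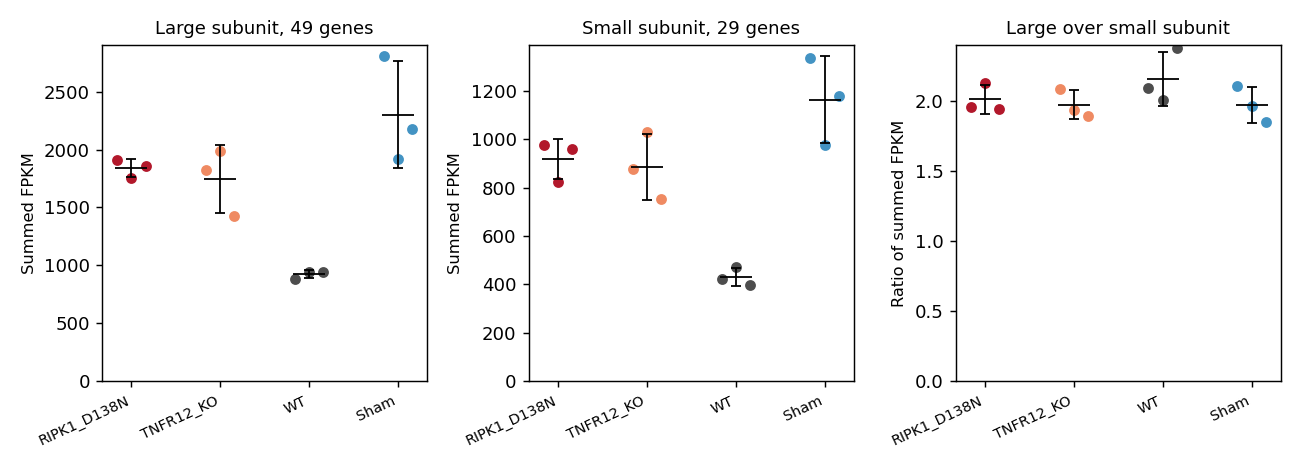
Summed FPKM of the 49 large-subunit and 29 small-subunit genes and the ratio of the sums, 1 point a library, with the mean and SD of each group of 3. WT is below every other group in both sums (925 and 431 FPKM on average), while the ratios, between 1.85 and 2.37, overlap between groups.

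By origin, 43 of 46 members with a bacterial counterpart and 28 of 31 found only in mitochondria fell in WT against Sham, with medians of -1.27 and -1.09. Over all tested genes 41.9% fell there, and 29.8% rose in RIPK1_D138N and 29.6% in TNFR12_KO against WT. In RIPK1_D138N against WT 37 of the 46 rose and none fell, and 23 of the 31 rose and 1 fell. There 29 of the 46 and 17 of the 31 rose without both Xist-positive libraries. In TNFR12_KO 38 of the 46 rose and none fell, and 22 of the 31 rose and 1 fell. The remaining member, Mrps36 (ENSMUSG00000061474, chr13:100735955-100744659, minus strand), is known as a subunit of the 2-oxoglutarate dehydrogenase complex of the citric acid cycle in spite of its name. It had 16.9, 14.4 and 18.2 FPKM in RIPK1_D138N and 16.8, 15.8 and 12.8 FPKM in TNFR12_KO. It had 4.21, 3.18 and 6.71 FPKM in WT, against 14.4, 9.35 and 11.8 FPKM in Sham. WT was below every other group, with log2 fold changes of 1.66 ± 0.23 (SE; adjusted p = 6.12e-05) in RIPK1_D138N and 1.54 ± 0.23 (SE; adjusted p = 0.000125) in TNFR12_KO against WT, and -1.20 in WT against Sham.

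Within the ribosome, all 3 stalk genes (Mrpl10, Mrpl11 and Mrpl12) fell in WT against Sham and rose in both mutants against WT. The rises of Mrpl10 were lost after rescaling to 1000000 FPKM. At the polypeptide exit, 5 of 6 fell in WT and 4 of 6 rose in each mutant, Mrpl17 and Mrpl45 being those that did not rise. In the central protuberance, 7 of 8 fell in WT and 7 of 8 rose in each mutant. Of all tested genes 41.9% fell in WT, and 29.8% rose in RIPK1_D138N and 29.6% in TNFR12_KO. With so few genes a region, these counts are not read as a difference between regions. Without both Xist-positive libraries the median log2 fold change in RIPK1_D138N against WT was 1.062 for stalk, 0.444 for exit and 0.752 for protuberance genes. Among the genes of these regions, Mrpl58 (ENSMUSG00000018858, chr11:115403752-115412674, plus strand) is a peptidyl-tRNA hydrolase that frees stalled chains. It had 44.95, 41.9 and 45.9 FPKM in RIPK1_D138N and 38.8, 47.4 and 33.5 FPKM in TNFR12_KO. It had 21.9, 26.9 and 27.04 FPKM in WT, against 67.9, 51.7 and 57.7 FPKM in Sham. No WT library reached the level of any other group, and Ict1os overlaps it on the opposite strand. Mrpl52 (ENSMUSG00000010406, chr14:54426909-54429756, plus strand), the third most abundant member, had 99.1, 98.6 and 105 FPKM in RIPK1_D138N and 121, 107 and 69.8 FPKM in TNFR12_KO. It had 50.96, 60.6 and 73.2 FPKM in WT, against 131, 88.5 and 119.5 FPKM in Sham. TNFR12_KO replicate 3 lay within the WT values, and the log2 fold changes against WT were 0.72 ± 0.22 (SE; adjusted p = 0.0168) in RIPK1_D138N and 0.65 ± 0.22 (SE; adjusted p = 0.0285) in TNFR12_KO, with a turned sign under 2 of the other scalings. The call in RIPK1_D138N was lost without WT library a (adjusted p = 0.0774), without its replicate 3 (0.0516) and without both Xist-positive libraries (0.131). That in TNFR12_KO was lost without WT library a or b or TNFR12_KO replicate 1 or 2 (0.0576 to 0.118) and with no filter (0.0615).

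In the small subunit, the 3 genes of messenger RNA entry and decoding (Mrps5, Mrps12 and Mrps24) fell in WT, and all 3 rose in TNFR12_KO and 2 in RIPK1_D138N. The shares of all tested genes are those given above for the regions of the large subunit. The rise of Mrps12 in TNFR12_KO was lost without TNFR12_KO replicate 2 (adjusted p = 0.0501). It was also lost after rescaling to 1000000 FPKM (0.496), under quantile normalization (0.239) and with the length trend removed (0.142). Mrps12 had 20.2, 30.5 and 20.8 FPKM in WT, against 79.9, 65.7 and 83.9 FPKM in Sham, a log2 fold change of -1.66 ± 0.25 (SE; adjusted p = 9.22e-05). Mrps34 (ENSMUSG00000038880, chr17:24895116-24897502, plus strand), known to be needed for the stability of the small subunit, had 77.6, 55.9 and 76.7 FPKM in RIPK1_D138N and 57.02, 86.4 and 63.6 FPKM in TNFR12_KO. It had 26.7, 46.3 and 20.96 FPKM in WT, against 117, 90.7 and 96.5 FPKM in Sham. WT library b was the highest WT library and still below every mutant library, and the log2 fold changes against WT were 1.20 and 1.17. On the deposited values the head-to-head pair behaved alike in direction. Mrpl46 had 19.3, 16.1 and 16.6 FPKM in RIPK1_D138N and 12.6, 20.4 and 12.4 FPKM in TNFR12_KO. It had 8.66, 8.78 and 9.48 FPKM in WT, against 40.5, 22.6 and 25.3 FPKM in Sham. Mrps11 had 14.7, 14.7 and 13.02 FPKM in RIPK1_D138N and 15.6, 16.7 and 11.2 FPKM in TNFR12_KO. It had 5.30, 6.38 and 6.87 FPKM in WT, against 18.7, 14.9 and 12.99 FPKM in Sham. WT was lowest for both genes, with log2 fold changes against Sham of -1.57 for Mrpl46 and -1.19 for Mrps11. The rise of Mrpl46 in TNFR12_KO against WT was lost when any 1 WT library was left out (adjusted p = 0.0565 to 0.081). It was also lost without TNFR12_KO replicate 2 (0.14), with no filter (0.0682) and under each of the other scalings (0.103 to 0.978).

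Genes that work with the mitochondrial ribosome were read from lists of known members. All 5 ribosomal proteins with other symbols (Dap3, Ptcd3, Aurkaip1, Chchd1 and Gadd45gip1) fell in WT against Sham, and 4 rose in each mutant against WT. Gadd45gip1, a large-subunit protein, had 8.05, 9.30 and 8.67 FPKM in WT, against 27.97, 17.5 and 34.7 FPKM in Sham. Chchd1, a small-subunit protein, had 23.01, 21.8 and 22.1 FPKM in WT, against 81.5, 44.7 and 47.00 FPKM in Sham. WT and Sham did not overlap for either gene, with log2 fold changes of -1.47 and -1.28. Of 26 assembly factors, 24 were tested, and 20 (83.3%) fell and 1 (Rpusd4) rose in WT, beside 41.9% and 16.4% of all tested genes. The largest falls were -1.92 ± 0.17 (SE; adjusted p = 1.41e-06) for Tfb1m, which methylates the small ribosomal RNA, and -1.66 ± 0.25 (SE; adjusted p = 8.77e-05) for Mrm2, which methylates the large one. Tfb1m had 1.98, 1.78 and 1.83 FPKM in WT, against 12.4, 8.96 and 8.49 FPKM in Sham. In each mutant 15 assembly factors (62.5%) rose and 4 (16.7%) fell against WT, the 4 being Ddx28, Rpusd4, Rcc1l and Trub2. Of all tested genes 29.8% rose and 21.9% fell in RIPK1_D138N, and 29.6% rose and 17.5% fell in TNFR12_KO. The shares of assembly factors that fell in the mutants lie near the background. The median log2 fold change of the tested assembly factors in RIPK1_D138N against WT was 0.532, and 0.618 without both Xist-positive libraries.

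Of 13 translation factors 12 (92.3%) fell in WT, while 6 (46.2%) rose in RIPK1_D138N and 9 (69.2%) in TNFR12_KO and none fell. Over all tested genes 41.9% fell in WT, and 29.8% rose in RIPK1_D138N and 29.6% in TNFR12_KO. Mtif3, an initiation factor, had 4.82, 5.75 and 4.05 FPKM in WT, against 32.6, 22.9 and 17.7 FPKM in Sham, and Gfm2, a ribosome recycling factor, had a log2 fold change of -1.17. Of 20 genes that charge mitochondrial transfer RNAs 18 were tested, and 10 (55.6%) fell in WT, beside 41.9% of all tested genes. In RIPK1_D138N 7 (38.9%) rose and 2 fell, and in TNFR12_KO 7 rose and 1 fell, beside 29.8% and 29.6% of all tested genes that rose, so these shares lie near the background. Gatb, of the complex that makes glutaminyl transfer RNA, had a log2 fold change of -2.14 in WT, and Fars2, which charges phenylalanine, one of -1.81. Of 17 genes that copy, transcribe or process mitochondrial DNA and RNA 12 (70.6%) fell in WT. In RIPK1_D138N 7 (41.2%) rose and 1 fell, and in TNFR12_KO 8 (47.1%) rose and 1 fell. The shares that rose lie not far above the 29.8% and 29.6% of all tested genes. Without both Xist-positive libraries the median log2 fold change in RIPK1_D138N against WT was 0.446 for the translation factors. It was 0.163 for the charging genes and 0.312 for these 17 genes. Hsd17b10, a subunit of mitochondrial RNase P, had 31.95, 41.98 and 32.7 FPKM in WT, against 259, 224 and 199.6 FPKM in Sham, with no overlap and a log2 fold change of -2.65. Tefm, an elongation factor of the mitochondrial RNA polymerase, had a log2 fold change of -1.99.

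Regulators moved in both directions. Of 9 regulators of mitochondrial biogenesis 8 were tested, and 3 rose (Pprc1, Nrf1 and Myc) and 2 fell in WT. Nrf1, the factor whose letters were searched above, had 1.66, 2.84 and 2.19 FPKM in RIPK1_D138N and 2.36, 1.93 and 2.21 FPKM in TNFR12_KO. It had 8.32, 6.38 and 7.08 FPKM in WT, against 3.32, 2.79 and 3.75 FPKM in Sham. WT was above every other group, with log2 fold changes of 0.95 ± 0.17 (SE; adjusted p = 0.000447) in WT against Sham, -1.36 ± 0.17 (SE; adjusted p = 3.4e-05) in RIPK1_D138N and -1.38 ± 0.17 (SE; adjusted p = 3.54e-05) in TNFR12_KO against WT. Myc, a transcription factor of growth genes, had 15.4, 13.4 and 11.8 FPKM in RIPK1_D138N and 16.99, 30.1 and 35.1 FPKM in TNFR12_KO. It had 55.4, 56.2 and 45.2 FPKM in WT, against 2.502, 3.72 and 3.91 FPKM in Sham. WT was highest and Sham lowest, with no overlap between mutants and either, and a log2 fold change of 3.61 ± 0.24 (SE; adjusted p = 2.1e-07) in WT against Sham. Ppargc1a did not pass the filter. In each mutant 1 regulator rose against WT, while 4 fell in RIPK1_D138N and 3 in TNFR12_KO. Of all tested genes 21.9% fell in RIPK1_D138N and 17.5% in TNFR12_KO. The median log2 fold change of the 8 in RIPK1_D138N was -0.369, and -0.368 without both Xist-positive libraries.

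The products of mitochondrial translation join nuclear subunits. All 71 nuclear subunits of oxidative phosphorylation fell in WT against Sham and rose in each mutant against WT, with medians of -1.95 in WT, 1.70 in RIPK1_D138N and 1.62 in TNFR12_KO. Of the 71, 69 rose in RIPK1_D138N without both Xist-positive libraries. Each median was further from 0 than that of the ribosomal proteins. Atp5j, of the ATP synthase, had 64.5, 87.8 and 58.9 FPKM in WT, against 498, 333 and 383 FPKM in Sham, and Atp5g1 had a log2 fold change of -2.44. Of 13 genes of the mitochondrial genome 5 (mt-Co1, mt-Co3, mt-Cytb, mt-Atp6 and mt-Atp8) are listed at 0 in all libraries of at least 1 group and get no fold change here. Of the other 8, 7 fell in WT, 7 rose in RIPK1_D138N and 8 rose in TNFR12_KO. Over all tested genes 41.9% fell in WT, and 29.8% rose in RIPK1_D138N and 29.6% in TNFR12_KO. The median log2 fold change of the 8 in RIPK1_D138N against WT was 1.025, and 0.681 without both Xist-positive libraries. The largest falls in WT among these were mt-Nd3 (-2.50) and mt-Nd6 (-1.84), subunits of complex I. The ribosomal RNAs of the mitochondrial ribosome were not tested. The small one, mt-Rnr1, averaged 5457 ± 1295 FPKM in RIPK1_D138N, 4867 ± 2289 in TNFR12_KO, 2520 ± 463 in WT and 2848 ± 197 in Sham (SD, n = 3 each). The large one, mt-Rnr2, averaged 5214 ± 1056 FPKM in RIPK1_D138N, 4438 ± 2105 in TNFR12_KO, 3254 ± 727 in WT and 2882 ± 261 in Sham. WT and Sham overlapped for both, with the WT mean the lower for mt-Rnr1 and the higher for mt-Rnr2.

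The cytosolic ribosome is built from its own set of proteins. Of its 77 protein genes 40 (51.9%) fell in WT against Sham and none rose, while 41.9% of all tested genes fell. Their median was -0.54, against -1.19 for the mitochondrial ones. In RIPK1_D138N against WT 12 (15.6%) rose and 1 (1.3%) fell, with a median of 0.35, or 0.39 without both Xist-positive libraries. In TNFR12_KO 1 (1.3%) rose and 2 (2.6%) fell, with a median of 0.11. Of all tested genes 29.8% rose and 21.9% fell in RIPK1_D138N, and 29.6% rose and 17.5% fell in TNFR12_KO. A smaller share of cytosolic ribosomal proteins than of all tested genes thus rose in each mutant. Rps18 had 469.6, 595 and 456 FPKM in WT, against 1478, 809.5 and 1005 FPKM in Sham, and Rps27 had a log2 fold change of -0.99, though both have pseudogenes that can share fragments. The direction of this group depends on scaling: after rescaling to 1000000 FPKM 63 of the 77 rose in WT and none fell, with a median of 0.71, while 53.1% of all tested genes rose. Relative to the median of all genes, mitochondrial ribosomal proteins stayed between -0.83 and -0.52 and oxidative phosphorylation subunits between -1.58 and -0.75 under the 5 scalings, while cytosolic ribosomal proteins ran from -0.18 to 0.69.

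**Figure D5:**
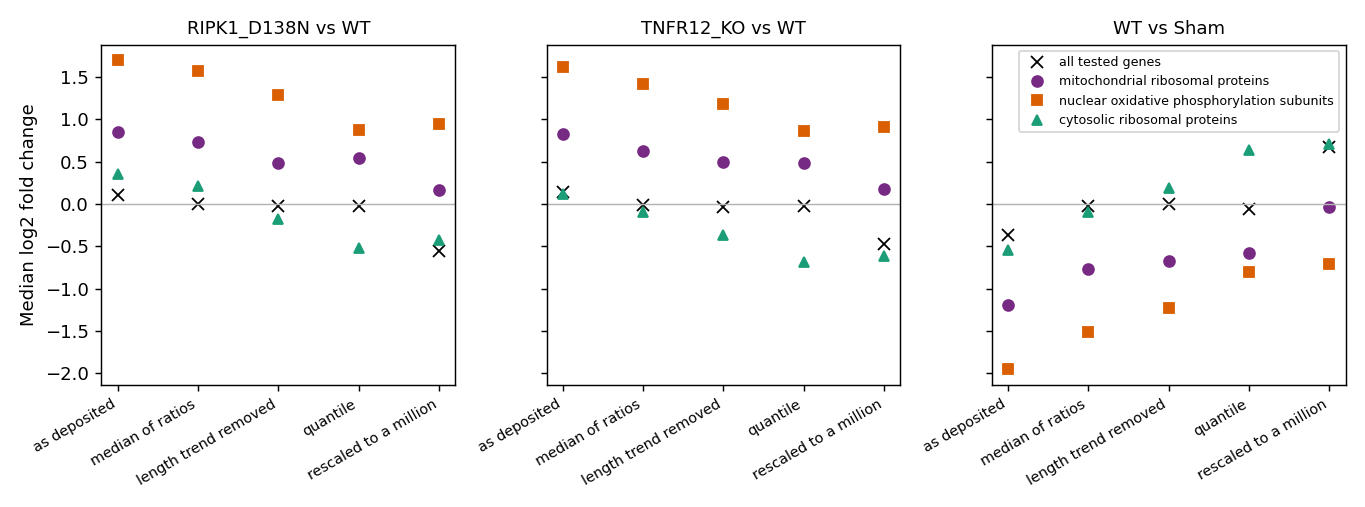
Median log2 fold change of 3 gene groups and of all tested genes (crosses) under 5 scalings of the libraries, in 3 comparisons. Mitochondrial ribosomal proteins (circles) lie above all tested genes in RIPK1_D138N and TNFR12_KO against WT and below them in WT against Sham under each scaling, at -1.19 as deposited and at -0.03 after rescaling to 1000000 FPKM in WT against Sham.

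Members are short genes, and length moved with fold change in these libraries. Their longest transcripts had a median of 1302 bases, against 2618 bases over tested genes, and 59 of 78 were shorter than that. Across the 11709 tested genes with a length, Spearman's rho of length with fold change was 0.324 in WT against Sham, -0.322 in RIPK1_D138N and -0.282 in TNFR12_KO against WT. Within the members it was 0.248, -0.404 and -0.337. Genes are not independent replicates, and these values are descriptions. With the trend on length removed, 55 members fell and 1 rose in WT against Sham, while 27.6% of all tested genes fell and 25.5% rose. In RIPK1_D138N against WT 42 members then rose and 2 fell, beside 25.5% and 25.2% of all tested genes, and in TNFR12_KO 42 rose and 3 fell, beside 24.2% and 23.9%. In the basic annotation 26 members share exon bases with another gene, 21 of them on the opposite strand only. Of the other 52, 50 fell in WT against Sham and 43 rose in each mutant against WT, or 33 in RIPK1_D138N without both Xist-positive libraries.

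Markers of other liver cells were read in the same libraries. Beside the counts below, 16.4% of all tested genes rose and 41.9% fell in WT against Sham. Against WT 29.8% rose and 21.9% fell in RIPK1_D138N, and 29.6% rose and 17.5% fell in TNFR12_KO. The shares without both Xist-positive libraries were given above with the members. Of 6 Kupffer cell markers 5 were tested, and 4 fell in WT against Sham, with sums of 18.8 to 26.2 FPKM in WT and 55.8 to 85.8 FPKM in Sham. Of these 5, 2 fell in RIPK1_D138N and 3 in TNFR12_KO against WT. Of 6 stellate cell markers 3 rose in WT against Sham and none fell. They summed to 134 to 152 FPKM in RIPK1_D138N and 55.6 to 89.0 FPKM in TNFR12_KO, against 126 to 154 FPKM in WT and 56.0 to 83.2 FPKM in Sham. Against WT 3 rose and 1 fell in RIPK1_D138N, or 1 rose and 2 fell without both Xist-positive libraries, and 3 fell in TNFR12_KO. Between the mutants 2 (Dcn and Lrat) were higher in RIPK1_D138N, and none without both Xist-positive libraries. The sums of 6 neutrophil markers spread from 4.18 to 181 FPKM within RIPK1_D138N, 12 to 157 FPKM within TNFR12_KO, 4.66 to 259 FPKM within WT and 37.6 to 81.3 FPKM within Sham, and none of the 4 tested passed in WT against Sham or in either mutant against WT. The 3 erythroid markers summed to 754 to 1546 FPKM in RIPK1_D138N and 845 to 1701 FPKM in TNFR12_KO, against 67.8 to 125 FPKM in WT and 146 to 281 FPKM in Sham. Markers of T and B cells summed to at most 3.10 FPKM and none was tested. The 5 cholangiocyte markers summed to 50.7 to 66.1 FPKM in RIPK1_D138N and 35.1 to 59.2 FPKM in TNFR12_KO, against 65.9 to 201 FPKM in WT and 23.5 to 28.7 FPKM in Sham. WT and Sham did not overlap, and of the 4 tested 3 rose in WT against Sham, 1 rose and 1 fell in RIPK1_D138N, and 1 rose and 2 fell in TNFR12_KO against WT. The 6 endothelial markers summed to 13.3 to 88.2 FPKM in RIPK1_D138N and 8.35 to 41.8 FPKM in TNFR12_KO, against 14.7 to 17.7 FPKM in WT and 24.5 to 40.4 FPKM in Sham. Of these 6, 1 rose and 2 fell in WT against Sham, 3 rose and 1 fell in RIPK1_D138N, and 1 rose and 1 fell in TNFR12_KO against WT. With 6 markers and the shares above, these counts are not read as a change of endothelial cells. Without both Xist-positive libraries 1 Kupffer cell marker fell, 1 endothelial marker rose and 1 fell, and 2 cholangiocyte markers rose and 1 fell in RIPK1_D138N. The part of these cells in the members' levels was not tested. Alb, Apoe and Serpina1b, hepatocyte genes, are listed at 0 in all 12 libraries, and Ttr, Apoa1, Serpina1a, Cps1, Tat and Cyp2e1 stood in as hepatocyte markers.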

How the data were processed

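RNA of mouse liver was sequenced in 12 libraries, 3 in each of 4 groups, from total RNA. The authors deposited 1 table of FPKM values for 53796 genes; STAR 2.5.4a, Cufflinks 2.2.1, Cuffdiff and the build mm10 are named, per the submitters' processing notes, with no strand setting. The table holds no counts, so depth is known only in relative terms and no counting interval is given. Where rows shared a symbol (131 further rows), the row with the highest mean was used. Coordinates and lengths come from GENCODE M21 on GRCm38, the build of mm10, matched for 53616 genes.

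Comparisons used limma 3.58.1 (R 4.3.3). Its input was log2(FPKM + 1) of the 11718 genes that reached 1 FPKM in 3 or more libraries, and 1 model of 4 group means was fitted, with the variance following the mean level. P-values were adjusted by Benjamini-Hochberg over all of them, with a threshold of 0.05. Fold changes are on the log2(FPKM + 1) scale, which understates those of low genes, and the first group named is on top. The method was tested on simulated data. Alternatives were a pseudocount of 0.1, no filter, a filter of 5 FPKM, 4 other scalings (median of ratios, total of 1000000 FPKM, quantile normalization, length trend removed), no trend, fits of 2 groups, leaving out libraries, summing rows of 1 symbol and a replicate block.

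The members and lists were chosen with earlier results of these data known. Members named with values are the 6 with the largest rise and fall in each main comparison, those that moved against the majority, the 4 with the lowest p between the mutants, the 3 most abundant of each subunit and 13 with a known special role. In other lists the 2 largest changes between WT and Sham are named. Mrps6, Mrps11, Mrpl46, regulators other than those 2 and members named as not passing were chosen after their values were seen. A gene listed at 0 throughout a group and at 10 FPKM or more in another gets no fold change.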

Additional observations from a re-analysis of the deposited data

Results flagged for a closer look

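In the list of mitochondrial genome genes, mt-Cytb, which encodes cytochrome b, is listed at 0 in all 3 TNFR12_KO libraries. Its mean was 8107 FPKM in RIPK1_D138N, where the libraries held 6297, 8472 and 9553 FPKM. The WT libraries held 4442, 3287 and 3610 FPKM and the Sham libraries 5927, 9150 and 8089 FPKM. It was the only gene of the ribosomal, mitochondrial and regulator lists to differ between RIPK1_D138N and TNFR12_KO by limma with Benjamini-Hochberg adjustment. For mt-Nd1, another gene of the same genome, the TNFR12_KO libraries held 9817, 3919 and 6307 FPKM. An exact 0 in this table can be a failed estimate, and no fold change is given.

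Of the 6 markers of stellate cells, 2 (Dcn and Lrat, chosen after their values were seen) were higher in RIPK1_D138N than in TNFR12_KO by the same test. The 6 summed to 134 to 152 FPKM in RIPK1_D138N, against 55.6 to 89.0 FPKM in TNFR12_KO, and none passed without both Xist-positive libraries.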

How the results depend on the processing

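Rescaling to 1000000 FPKM gave 9 members higher and 11 lower in WT against Sham, 22 higher and 10 lower in RIPK1_D138N against WT, 24 higher and 8 lower in TNFR12_KO against WT, 9 higher and 3 lower in RIPK1_D138N against Sham, and 11 higher and 2 lower in TNFR12_KO against Sham. Quantile normalization gave 2 higher and 47 lower in WT against Sham, 3 lower in RIPK1_D138N against WT, 38 higher and 4 lower in TNFR12_KO against WT, 2 higher and 4 lower in RIPK1_D138N against Sham, and 5 lower in TNFR12_KO against Sham. The median of ratios gave 2 lower in each mutant against WT, 2 higher and 4 lower in RIPK1_D138N against Sham, and 4 lower in TNFR12_KO against Sham. Removing the length trend gave 1 higher in WT against Sham, 2 lower in RIPK1_D138N and 3 lower in TNFR12_KO against WT, 4 higher and 6 lower in RIPK1_D138N against Sham, and 7 lower in TNFR12_KO against Sham. Fits of the 2 groups alone gave 2 lower in RIPK1_D138N against WT, and against Sham 12 lower in RIPK1_D138N and 4 in TNFR12_KO. The shares of all tested genes against Sham are not given here for these fits, rescaling, quantile normalization or the length trend. Of all tested genes 8.34% were lower in RIPK1_D138N against Sham with no filter. With no filter 14 members were lower in RIPK1_D138N against Sham, and without both Xist-positive libraries 2 were, further from 22 than under any of the scalings. The causes were not tested.

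Leaving out 1 library at a time gave 71 to 74 members lower in WT against Sham, 56 to 62 higher and 1 to 2 lower in RIPK1_D138N against WT, and 51 to 62 higher and 1 to 2 lower in TNFR12_KO against WT. Against Sham it gave 0 to 1 higher and 6 to 20 lower in RIPK1_D138N, and 4 to 20 lower in TNFR12_KO. No share of all tested genes is given beside these counts. The ratio of large to small subunit, 2.01, 1.97, 2.16 and 1.97 in RIPK1_D138N, TNFR12_KO, WT and Sham, was 1.47, 1.48, 1.17 and 1.45 by the median gene, and 2.17, 2.12, 2.37 and 2.11 with Mrps18a and Mrps30 counted in the large subunit and Mrps36 left out.

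Signs turned for some named genes (log2 fold changes). In WT against Sham, rescaling gave 0.20 for Mrpl44, 1.12 for Mrpl45, 0.39 for Mrpl52, 0.039 for Mrpl58, 0.21 for Mrps18a, 0.67 for Mrps18b and 0.74 for Mrps30. Quantile normalization gave 0.38 for Mrpl45, 0.29 for Mrpl52 and 0.32 for Mrps18b, removing the length trend 0.30 for Mrpl45 and 0.17 for Mrps18b, and the median of ratios 0.33 for Mrpl45. In RIPK1_D138N against WT, rescaling gave -0.035 for Mrpl10, -0.66 for Mrpl17, -0.34 for Mrpl44, -0.57 for Mrpl45, -0.047 for Mrpl52, -0.019 for Mrps18a and -0.31 for Mrps6. Quantile normalization gave -0.85 for Mrpl17, -0.035 for Mrpl45 and -0.21 for Mrpl52, the median of ratios -0.022 for Mrpl17, and removing the length trend -0.029 for Mrpl44 and -0.11 for Mrps6. Without both Xist-positive libraries Mrps30 was at 0.021. In TNFR12_KO against WT, rescaling gave -0.49 for Mrpl17, -0.26 for Mrpl44, -0.008 for Mrpl46, -0.061 for Mrpl52, -0.075 for Mrpl58, -0.15 for Mrps18a and -0.59 for Mrps6. Quantile normalization gave -0.70 for Mrpl17, -0.24 for Mrpl52 and -0.25 for Mrps6, the median of ratios -0.089 for Mrps6, and removing the length trend -0.004 for Mrpl44 and -0.40 for Mrps6. With 1 library left out, Mrpl45 ran from -0.163 to 0.067 in WT against Sham and from -0.153 to 0.004 in TNFR12_KO against WT, and Mrps6 from -0.029 to 0.428 and from -0.024 to 0.297; their signs turned without Sham library c in WT against Sham, and without TNFR12_KO replicate 3 (Mrpl45) or 1 (Mrps6). The causes were not tested.

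The replicate numbers of RIPK1_D138N and TNFR12_KO were not taken to pair the libraries. Same-numbered libraries deviated from their group means with correlations of -0.098, -0.202 and 0.0573. With so few libraries a group, and Xist in only some RIPK1_D138N libraries, these values cannot exclude a pairing. With the replicate block 0 members were higher and 0 lower between the mutants, as without it. For WT and Sham no paired analysis was possible because their columns carry no number that could be matched.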
